A study of Homo sapiens with 3 samples.

Results

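The mismatch repair genes MSH3, MSH5, MSH6, MLH3, PMS1 and PMS2 were followed across the 3 RNA-seq libraries of the series. They were taken by gene symbol from the deposited table of read counts, in which each symbol has 1 entry, and are 6 of 48162 entries. Genes were compared where their reads, scaled to library size as CPM, averaged at least 1 over the libraries. All 6 passed, among 12694 genes that did. MSH3 and MSH5 passed it only narrowly, at a mean of 1.61 and 1.18 CPM. MSH5 was above 1 CPM in the siRNA library alone and so passed through that library, and MSH3 was above it in the siRNA and untreated libraries.

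The cells were HCT116, an established human colon cancer line that is known to be deficient in mismatch repair. One library came from cells given 1 µM palbociclib for 24 hours, 1 from cells transfected with an siRNA against CDK4 for 24 hours, and 1 from untreated cells. Palbociclib inhibits the kinases CDK4 and CDK6, and the siRNA targets the mRNA of CDK4. No solvent, transfection or non-targeting siRNA control was analysed here, so the untreated library is the only baseline. With 1 library per group there is no replicate spread, and no test was made. Brackets hold 95% intervals for counting error only.

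Mismatch repair removes bases that DNA polymerase has paired wrongly, and small loops where the polymerase has slipped. MutS-family proteins find the fault, MutL-family proteins then join them and cut the new strand, and an exonuclease, the sliding clamp and a polymerase remove and refill the stretch. In the MutS family, MSH6 is the subunit for single mispairs and short loops, MSH3 the subunit for larger loops, and MSH5 acts in meiotic crossing over. In the MutL family, PMS2 carries the endonuclease of the main repair complex, MLH3 acts in meiotic crossing over and has a minor part in repair, and the role of PMS1 in repair is poorly defined.

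The start regions of 4 members are shown with letters of the E2F motif, the site bound by the E2F factors that the CDK4 and RB pathway controls. MSH6, MSH3 and PMS2 hold such letters. MLH3 lacks them, as do PMS1 and MSH5, which are not shown. The motif was searched as TTTCCCGC, TTTCGCGC, TTTGCCGC or TTTGGCGC on both strands, from 250 bases before to 30 after the most upstream RefSeq start (GRCh38.p14), and matches are in capitals. The windows are chr2:47782895-47783174 on the plus strand for MSH6, chr5:80654402-80654681 on the plus strand for MSH3, chr7:6009077-6009356 on the minus strand for PMS2 and chr14:75051438-75051717 on the minus strand for MLH3.
MSH6: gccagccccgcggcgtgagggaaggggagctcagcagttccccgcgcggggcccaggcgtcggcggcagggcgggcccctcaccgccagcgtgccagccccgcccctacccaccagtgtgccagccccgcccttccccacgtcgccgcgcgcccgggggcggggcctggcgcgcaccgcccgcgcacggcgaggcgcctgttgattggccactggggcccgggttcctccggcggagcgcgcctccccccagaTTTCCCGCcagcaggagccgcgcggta
MSH3: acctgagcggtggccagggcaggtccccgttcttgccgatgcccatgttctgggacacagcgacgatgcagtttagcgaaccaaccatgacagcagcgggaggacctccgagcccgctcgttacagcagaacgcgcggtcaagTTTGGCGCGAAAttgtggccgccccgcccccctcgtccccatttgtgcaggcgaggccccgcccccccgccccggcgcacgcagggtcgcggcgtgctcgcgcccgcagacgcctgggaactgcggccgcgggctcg
PMS2: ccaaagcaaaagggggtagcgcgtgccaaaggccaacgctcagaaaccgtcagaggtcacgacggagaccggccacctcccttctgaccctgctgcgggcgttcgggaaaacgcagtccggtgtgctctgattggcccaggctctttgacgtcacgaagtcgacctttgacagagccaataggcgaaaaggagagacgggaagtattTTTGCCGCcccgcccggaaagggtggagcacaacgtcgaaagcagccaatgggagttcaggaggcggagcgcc
MLH3: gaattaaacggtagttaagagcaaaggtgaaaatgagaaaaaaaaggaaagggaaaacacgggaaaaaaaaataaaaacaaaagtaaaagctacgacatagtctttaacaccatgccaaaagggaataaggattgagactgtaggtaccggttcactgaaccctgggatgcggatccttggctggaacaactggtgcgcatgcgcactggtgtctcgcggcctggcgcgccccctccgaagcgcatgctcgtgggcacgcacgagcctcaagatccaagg

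All 6 members matched the RefSeq table of start regions, and 3 of the 6 windows held the motif. MSH6 had TTTCCCGC on the plus strand from base 4 after the start. MSH3 had TTTGGCGC from base -107 and, overlapping it on the other strand, TTTCGCGC. PMS2 had TTTGCCGC from base -43, overlapping a GC box. The windows of MLH3, PMS1 and MSH5 held none of these letters. Over all genes in the RefSeq table the share with the motif in such a window was 3.82%. Of other cell cycle and basal motifs, the CHR letters (TTTGAA or TTCGAA, 18.7% of genes) occurred in MSH5 alone of the members, and the GC box GGGCGG (47.5% of genes) in every member but MLH3. The CCAAT box CCAAT (38.7% of genes) occurred in MSH5, MSH6, PMS1 and PMS2. The MLH3 window was also the poorest in G and C, at 48.9%, against 60.4% in PMS2, the next lowest, and 79.6% in MSH6, the highest. A match is a match of letters and was not tested as a binding site.

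The libraries held 18020870 reads with palbociclib, 18349355 with CDK4 siRNA and 20313597 in untreated cells. CDK4, the siRNA target, had 1426 reads with palbociclib, 1059 with siRNA and 2689 untreated. Its ratio to untreated was 0.686 with palbociclib (0.643 to 0.732) and 0.420 with siRNA (0.391 to 0.451). The 8 epithelial markers summed to 4572, 5026 and 5176 CPM in the palbociclib, siRNA and untreated libraries. Of these, 7 had reads with palbociclib, 6 with siRNA and 6 untreated. Among the intestinal markers, CDX2 had 694, 651 and 670 reads in the palbociclib, siRNA and untreated libraries. CDX1 had 0 in each library, and VIL1 had 5, 0 and 0. Blood markers summed to 3.33, 0.355 and 0.0476 CPM in the palbociclib, siRNA and untreated libraries, with reads of 2, 3 and 1 of 6 genes and none of PTPRC. CD14, a monocyte gene, gave 52, 3 and 0 of those reads. Fibroblast markers summed to 8.99, 22.3 and 15.0 CPM with reads of 4, 2 and 2 of 6 genes, and COL1A1 gave 141, 434 and 310 of those reads, while COL1A2 and LUM were at 0 in every library. The 4 endothelial markers used summed to 1.17, 0.964 and 0.429 CPM with reads of 3, 3 and 2 genes, and CDH5 was at 0 in every library. Their part in the results was not tested.

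Mismatch repair transcripts did not move as a block with palbociclib relative to untreated cells. The 3 MutS genes MSH6, MSH3 and MSH5 were lower by the size rule, which asks for a log2 ratio of 1 or more, up or down, with an interval clear of 1. PMS2 was lower by a smaller amount, PMS1 was close to the untreated level, and MLH3 was higher. Thus 3 of 6 members were lower and 0 higher by the size rule, where 13.6% of all compared genes were lower and 10% higher. MSH3 and MSH5 were below 1 CPM with palbociclib and passed the filter through other libraries. The filter thus partly fixed their lower direction, and the count is a description only. Intervals lay below 1 for 5 members and above 1 for 1, where 41.9% of all genes lay below and 36.0% above. The median log2 ratio of the 6 was -0.88, also with MSH5 set at a floor of 3 counts, against -0.07 for all genes compared. Without the scarce MSH3 and MSH5, at a mean of at least 5 CPM, 1 of 4 was lower and the median was -0.46. In bulk RNA, fewer cells in a cycle phase and less RNA per cell cannot be told apart. Of all calls by the size rule, 42.4% were higher with the scaling used (TMM), 26% with total counts and 52.5% with upper-quartile scaling, so ratios close to 1 depend on the scaling.

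MSH6, the mispair-recognising subunit and the most abundant member, had 930 reads with palbociclib, 2023 with CDK4 siRNA and 2497 untreated. Scaled, MSH6 was at 57.3 CPM with palbociclib (53.7 to 61.1), at 103 CPM with siRNA (98.3 to 107) and at 119 CPM untreated (114 to 124). The palbociclib library was the lowest and its interval did not meet those of the other libraries. MSH6 was at 0.482 of the untreated level with palbociclib (0.446 to 0.520), a log2 ratio of -1.05 and percentile 12.4 of the genes compared. It stood near the limit of the size rule and was short of it with upper-quartile scaling, at a log2 ratio of -0.93.

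MSH3, the subunit for larger loops, was scarce, with 12 reads with palbociclib, 45 with siRNA and 38 untreated. Its level was 0.739 CPM with palbociclib (0.382 to 1.29), 2.28 CPM with siRNA (1.67 to 3.06) and 1.81 CPM untreated (1.28 to 2.48). The palbociclib library was the lowest, its interval was below that of siRNA and just met that of untreated cells, and the siRNA and untreated intervals overlapped. MSH3 was at 0.409 of the untreated level with palbociclib, with a wide interval of 0.194 to 0.799.

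MSH5, the meiotic member, had 0 reads with palbociclib, 51 with siRNA and 20 untreated. A count of 0 allows up to 0.227 CPM by the exact interval, against 2.59 CPM (1.93 to 3.40) with siRNA and 0.952 CPM (0.582 to 1.47) untreated. Set at a floor of 3 counts in the palbociclib library, which is 0.185 CPM, MSH5 was 5.15-fold lower with palbociclib than untreated. That value takes the 20 untreated reads as exact. The exact interval of the ratio reached up to 0.262 of the untreated level. This gene lies wholly inside the annotated readthrough MSH5-SAPCD1, which had 0 reads in every library. How reads shared by both were counted is not given in the sources used here, so the MSH5 counts are uncertain.

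PMS2, the endonuclease subunit, had 296 reads with palbociclib, 460 with siRNA and 630 untreated, which is 18.2 CPM with palbociclib (16.2 to 20.4), 23.4 CPM with siRNA (21.3 to 25.6) and 30.0 CPM untreated (27.7 to 32.4). The 3 intervals did not overlap, with palbociclib the lowest and untreated the highest. PMS2 was at 0.608 of the untreated level with palbociclib (0.528 to 0.699).

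PMS1, the MutL gene of less defined function, had 399, 508 and 596 reads in the palbociclib, siRNA and untreated libraries. Its level was 24.6 CPM with palbociclib (22.2 to 27.1), 25.8 CPM with siRNA (23.6 to 28.1) and 28.4 CPM untreated (26.1 to 30.8), and these intervals overlapped. Its ratio with palbociclib was 0.866 (0.761 to 0.985), and the interval took in 1 with DESeq2 or upper-quartile factors, at log2 ratios of -0.18 and -0.09.

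MLH3, the other MutL gene with a meiotic role, went the other way. It had 269 reads with palbociclib, 229 with siRNA and 238 untreated, which is 16.6 CPM with palbociclib (14.6 to 18.7), 11.6 CPM with siRNA (10.2 to 13.2) and 11.3 CPM untreated (9.94 to 12.9). Only the palbociclib library stood above the others. MLH3 was at 1.46 of the untreated level with palbociclib (1.22 to 1.75), below the size rule, at a log2 ratio of 0.54.

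**Figure D1:**
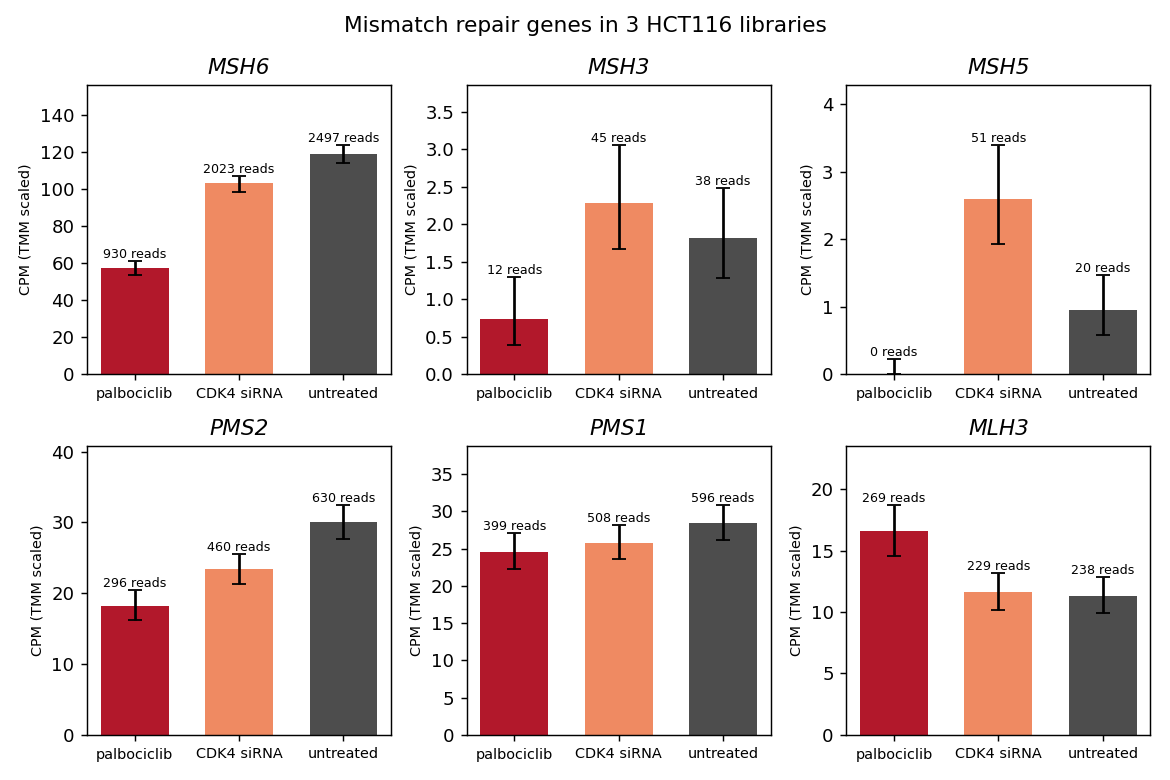
TMM-scaled CPM of the 6 genes in the palbociclib, CDK4 siRNA and untreated libraries, 1 library each; error bars are exact 95% Poisson intervals and the raw reads stand above each bar. MSH6 has 930, 2023 and 2497 reads, MSH5 has none with palbociclib, and MLH3 is highest with palbociclib.

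The siRNA library lay close to the untreated one for most members. By the size rule 1 member, MSH5, was higher and 0 were lower, where 1.10% of all genes were higher and 0.118% lower. Intervals lay above 1 for 1 member and below 1 for 2, where 17.7% and 23.7% of all genes did so. MSH5 was at 2.72 of the untreated level (1.59 to 4.81), which rests on 51 against 20 reads. As MSH5 passed the filter through its siRNA level, this count is a description and supports nothing about the members. PMS2 was at 0.778 (0.689 to 0.879) and MSH6 at 0.864 (0.814 to 0.916). PMS2 stood at percentile 5.10 of the genes compared and MSH5 at percentile 99.6. The intervals of PMS1 at 0.909 (0.806 to 1.02), MLH3 at 1.03 (0.852 to 1.24) and MSH3 at 1.26 (0.801 to 2.0) took in 1. The median log2 ratio of the 6 was -0.05, against -0.02 for all genes.

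Set directly against the siRNA library, 2 members were lower with palbociclib by the size rule and 0 higher, where 13.8% of all genes were lower and 8.75% higher. These were MSH3 at 0.324 of the siRNA level (0.156 to 0.622) and MSH5, 14.0-fold lower when set at the floor of 3 counts. The exact interval of the MSH5 ratio reached up to 0.0910 of the siRNA level. The filter that admitted MSH5 through the siRNA library partly fixed its lower direction. Intervals lay below 1 for 4 members and above 1 for 1, where 41.4% and 35.7% of all genes did so. MSH6 was at 0.558 (0.516 to 0.603), short of the rule at a log2 ratio of -0.84 and past it, at -1.09, when scaled by total counts. PMS2 was at 0.781 (0.672 to 0.906), PMS1 at 0.953 (0.834 to 1.09) and MLH3 at 1.43 (1.19 to 1.71). Scaled by total counts, MLH3 had a log2 ratio of 0.26 and its interval took in 1.

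Levels of different genes were set against each other per length, in the deposited FPKM values. MSH6 was at 11.9 FPKM with palbociclib, 25.5 with siRNA and 28.4 untreated, the highest member in each library. MSH3 was at 0.163, 0.599 and 0.457 FPKM and MSH5 at 0, 0.697 and 0.247 FPKM in the palbociclib, siRNA and untreated libraries. Per length, MSH6 exceeded MSH3 by a factor of 73.3 with palbociclib (41.7 to 142), 42.5 with siRNA (31.6 to 58.5) and 62.1 untreated (45.1 to 88.0). MSH6 and MSH3 were lower by amounts that these counts do not separate: their ratio with palbociclib was 1.18 times the untreated ratio, with an interval of 0.60 to 2.49.

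Among the MutL genes the order changed, for reads assigned to PMS2 alone. All PMS2 values here leave out its near-identical copies, described below, which make them uncertain. PMS2 was at 5.75 FPKM with palbociclib, 8.78 with siRNA and 10.9 untreated, PMS1 at 6.87, 8.58 and 9.10, and MLH3 at 1.89, 1.58 and 1.48. PMS2 over PMS1 per length was 0.838 with palbociclib (0.719 to 0.976), 1.02 with siRNA (0.900 to 1.16) and 1.19 untreated (1.07 to 1.34). PMS2 was thus below PMS1 with palbociclib, above it in untreated cells and not separable from it with siRNA. MLH3 was below both in every library, and PMS2 over MLH3 was 3.04 with palbociclib (2.57 to 3.60), 5.56 with siRNA (4.73 to 6.54) and 7.32 untreated (6.30 to 8.53). MLH3 made up 13.0% of the summed FPKM of the 3 MutL genes with palbociclib, 8.34% with siRNA and 6.92% untreated. MLH3 in turn exceeded MSH3 per length in each library, by a factor of 11.6 (6.54 to 22.8), 2.64 (1.91 to 3.72) and 3.25 (2.30 to 4.70). MSH3 and MSH5 were not separable with siRNA, at a ratio of 0.859 (0.563 to 1.31), and MSH3 was above MSH5 in untreated cells, at 1.85 (1.05 to 3.36).

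The human genome holds several near-identical copies of parts of PMS2, so reads can be split between them and the PMS2 count is uncertain. Of 9 such copies in the table, 6 had reads. Together they had 630 reads with palbociclib, 554 with siRNA and 599 untreated, or 38.8, 28.1 and 28.5 CPM. The copies were therefore at 1.36 of the untreated level with palbociclib (1.21 to 1.52), while PMS2 itself was at 0.608. With siRNA they were at 0.986 (0.877 to 1.11). PMS2CL, the copy with the most reads, had 274, 235 and 256 reads and was at 1.38 of the untreated level with palbociclib (1.16 to 1.65). PMS2P1 was at 1.08 (0.884 to 1.33), PMS2P3 at 2.02 (1.40 to 2.94), PMS2P4 at 1.16 (0.666 to 2.03) and PMS2P5 at 1.90 (1.28 to 2.84), and PMS2P2 had at most 5 reads in a library.

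Summed with its copies, PMS2 was at 57.0 CPM with palbociclib, 51.5 with siRNA and 58.5 untreated. That sum was at 0.975 of the untreated level with palbociclib (0.894 to 1.06) and at 0.880 with siRNA (0.809 to 0.957). The lower PMS2 level with palbociclib thus holds for reads assigned to PMS2 alone and not for the sum. Reads assigned to PMS2 were 32.0% of that sum with palbociclib, 45.4% with siRNA and 51.3% untreated. Whether assignment between the copies differed between libraries was not tested.

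**Figure D2:**
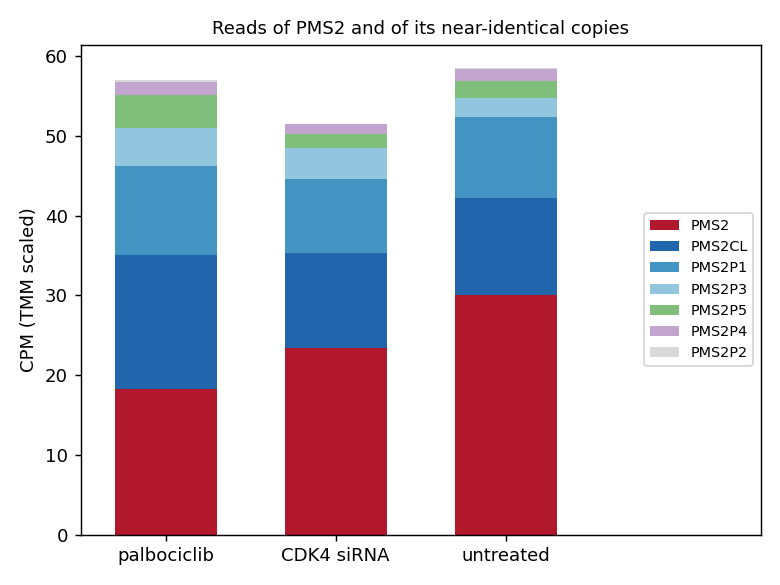
Stacked TMM-scaled CPM of PMS2 and its 6 copies with reads in the palbociclib, CDK4 siRNA and untreated libraries. The PMS2 block at the base is 18.2, 23.4 and 30.0 CPM, while the full stacks reach 57.0, 51.5 and 58.5 CPM.

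Genes next to a member in RefSeq were set beside it. The head-to-head neighbours of PMS2 and PMS1 stayed near the untreated level. AIMP2, a scaffold of the tRNA synthetase complex that starts beside PMS2, was at 1.01 with palbociclib (0.889 to 1.14), and PMS2 over AIMP2 was 0.604 of its untreated ratio (0.50 to 0.729). ORMDL1, a regulator of sphingolipid synthesis beside PMS1, was at 1.04 (0.905 to 1.20), and PMS1 over ORMDL1 was 0.830 of its untreated ratio, with an interval of 0.685 to 1.01. FBXO11, a ubiquitin ligase subunit whose span overlaps the end of MSH6, was at 1.36 (1.24 to 1.49). MSH6 over FBXO11 was 0.355 of its untreated ratio (0.315 to 0.400). As the strand setting of the counting is not given in the sources used here, reads in the overlap cannot be assigned.

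Beside MLH3, the acylphosphatase gene ACYP1 was at 0.705 with palbociclib (0.549 to 0.901) and EIF2B2, a subunit of a translation initiation factor, at 1.82 (1.65 to 2.0). Beside MSH5, CLIC1 was at 0.804 (0.777 to 0.833), VWA7 at 0.879 (0.639 to 1.20), and SAPCD1 had 3, 6 and 9 reads with palbociclib, siRNA and untreated. VWA7 was at 1.70 with siRNA (1.32 to 2.19), in the library where MSH5 was highest. EIF2AK1 and ZC2HC1C were also listed but lie further from any member than the genes above. They were at 1.14 (1.08 to 1.20) and 0.784 (0.426 to 1.41) with palbociclib.

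**Figure D3:**
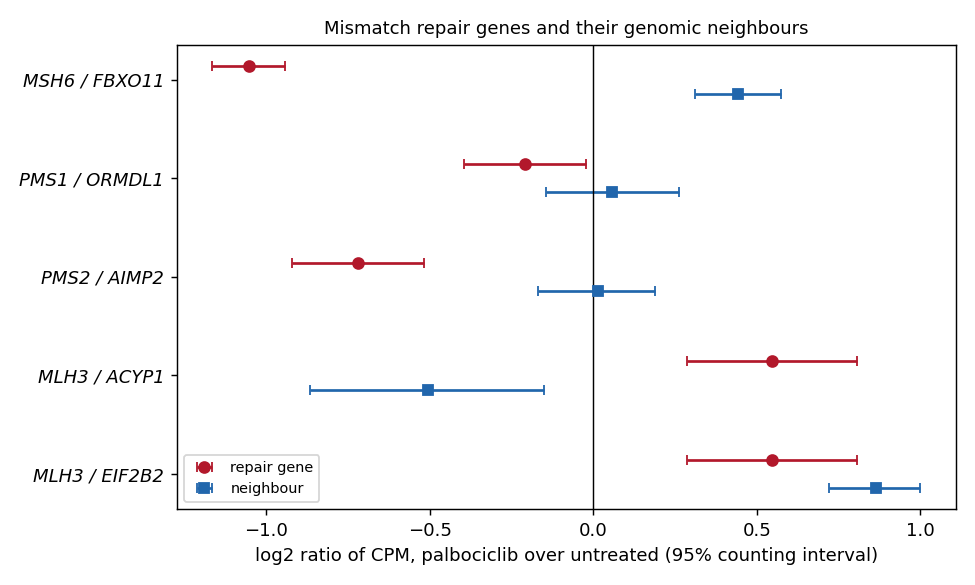
Log2 ratios of CPM, palbociclib over untreated, for a mismatch repair gene (circles) and a neighbour (squares), with 95% counting intervals. MSH6 and FBXO11 lie on opposite sides of 0, at 0.482 and 1.36 of the untreated level, whereas MLH3 and EIF2B2 both lie to the right.

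Transcripts of the proteins that excise and refill the mismatched strand were lower with palbociclib in part. Of 15 compared, 6 were lower by the size rule and 0 higher, 14 intervals lay below 1, and the median log2 ratio was -0.70. Over all compared genes 13.6% were lower, 10% were higher and 41.9% had intervals below 1. EXO1, the exonuclease that degrades the nicked strand, had 260 reads with palbociclib, 928 with siRNA and 1123 untreated, and was at 0.30 of the untreated level with palbociclib (0.261 to 0.343). RPA3, a subunit of the single-strand binding protein, was at 0.289 (0.238 to 0.348). The other lower genes were the clamp loader subunits RFC2 and RFC5, the ligase LIG1 and HMGB1, named after their values were seen, at 0.418, 0.330, 0.415 and 0.418. PCNA, the sliding clamp, was at 0.618 (0.591 to 0.645), likewise named after its value was seen. With siRNA none of the 15 was past the rule, and the median was -0.06. Only 1.10% of all genes were higher and 0.118% lower there, so an absence of calls does not set the list apart.

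Of 5 genes whose products are known to work with the repair complex, 2 were lower with palbociclib, where 13.6% of all genes were. The helicase gene BRIP1 was at 0.299 (0.252 to 0.353) and the helicase gene MCM8 at 0.393 (0.336 to 0.459). SETD2, whose histone mark recruits MSH6 to chromatin, was at 1.82 (1.70 to 1.96). With siRNA none of the 5 was past the rule, where 1.10% of all genes were higher and 0.118% lower.

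Other repair and replication lists place the members. Over all compared genes 13.6% were lower and 10% higher with palbociclib, and the median log2 ratio was -0.07. Of 31 genes of replication origins and forks, 12 were lower with palbociclib and 0 higher, with a median of -0.97. POLA2 and POLE2, both DNA polymerase subunits, were at 0.182 (0.146 to 0.224) and 0.207 (0.157 to 0.269), and ORC6 went the other way at 1.39 (1.25 to 1.54). Of 24 genes of homologous recombination and Fanconi repair 11 were lower, with a median of -0.94, led by RAD51AP1 at 0.279 (0.227 to 0.342) and BRIP1. Base excision repair had 6 of 17 lower and a median of -0.55. There the glycosylase genes NEIL3 and SMUG1 were at 0.253 (0.200 to 0.318) and 0.258 (0.206 to 0.320), and the uracil glycosylase gene UNG was at 1.45 (1.37 to 1.55).

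Nucleotide excision repair had 0 of 17 lower and 2 higher, with a median of 0.05. With palbociclib 13.6% of all compared genes were lower and 10% higher, so the 2 higher genes do not set this list apart. UVSSA was among the 2 higher genes at 2.42 (2.09 to 2.81), and ERCC1 went the other way at 0.586 (0.528 to 0.650). End joining had 0 of 6 past the rule and a median of -0.33, with PRKDC at 0.699 (0.679 to 0.720) and XRCC5 at 0.772 (0.751 to 0.793). With siRNA the medians of these 5 lists lay between -0.06 and 0.06 and no member was past the rule. Only 1.10% of all genes were higher and 0.118% lower there, so this absence does not set the lists apart. Of the 31 replication genes, 16 siRNA intervals lay below 1 and 2 above, where 23.7% and 17.7% of all genes did so. These are counts and medians with no test.

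**Figure D4:**
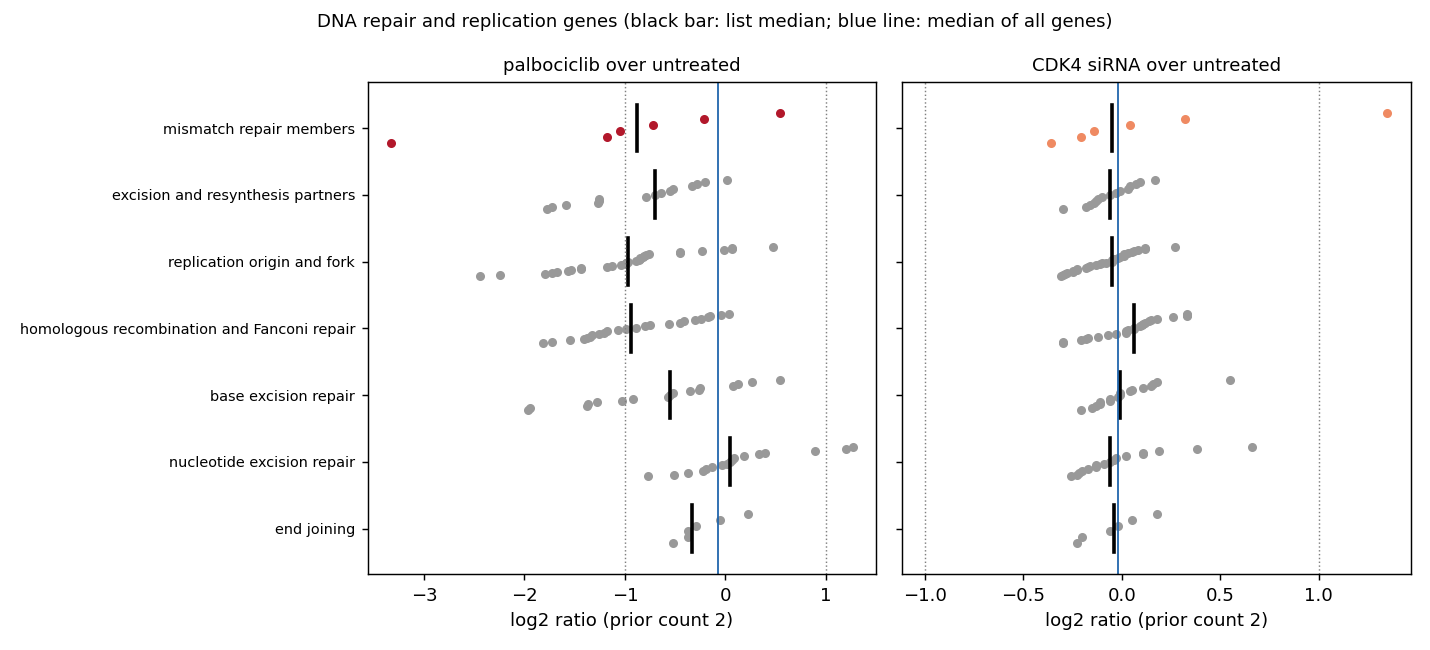
Log2 ratios (prior count 2) of single genes in 7 lists, palbociclib over untreated on the left and CDK4 siRNA over untreated on the right; black bars are list medians and the blue line is the median of all genes compared. The mismatch repair members have a median of -0.88 on the left and -0.05 on the right; the MSH5 point at the far left depends on the prior count, since it had 0 reads with palbociclib.

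Of 10 proliferation genes, 9 were lower with palbociclib by the size rule, with a median of -1.63, and 0 with siRNA, with a median of -0.08. Over all compared genes 13.6% were lower with palbociclib and 0.118% with siRNA. MKI67, a marker of cycling cells, was at 0.419 of the untreated level with palbociclib (0.405 to 0.434) and at 1.07 with siRNA (1.04 to 1.10). With siRNA, 2 of the 10 intervals lay above 1, MKI67 among them, and 6 lay below. Over all compared genes 17.7% lay above and 23.7% below. MKI67 thus does not stand for the list with siRNA. MSH6 over MKI67 was 1.15 times its untreated ratio with palbociclib (1.06 to 1.25) and 0.808 with siRNA (0.758 to 0.862). Of 8 meiotic crossover genes, CCNB1IP1, which encodes a ubiquitin ligase of crossover sites, alone reached the filter, at 3.19 of the untreated level with palbociclib (2.90 to 3.51) and 1.03 with siRNA (0.918 to 1.16). TEX11, RNF212, SYCP1 and SPO11 had 0 reads in every library. The others had few: HFM1 had 2 reads with palbociclib, 3 with siRNA and 0 untreated, SYCP3 had 1, 10 and 0, and the meiotic recombinase gene DMC1 had 0, 6 and 11.

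For the 4 members with a mean of at least 5 CPM, the nearest genes were sought by distance in the pair of log2 ratios over the untreated library, among 9013 other genes with a mean of at least 10 CPM. Both ratios share the untreated library, and 3 libraries give only 2 ratios, so such neighbours are many. MSH6 had 95 genes within a distance of 0.1, of which NCDN and THADA were nearest. PMS2 had 46, with ZNF587B among the nearest, and PMS1 had 329, with EMC7 and SLAIN2 nearest. MLH3 had 234, with the kinase gene STK16 and POLK, which encodes a translesion DNA polymerase, nearest.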

How the data were processed

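Read counts and FPKM values per gene were analysed for 3 HCT116 libraries, 1 per group. HTSeq (0.6.1), the program DESeq and build hg19 are named, per the submitters' processing notes, without their roles. For the aligner, annotation and strand setting, none is given in the sources used here. The deposited counts are whole numbers and raw. In the deposited FPKM table the authors divided those counts by gene length and library total, as checked over 16938 genes, so it adds no independent measurement. Columns were matched to libraries by title.

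Counts were scaled with TMM factors (edgeR 4.0.16, R 4.3.3) of 0.901 for palbociclib, 1.07 for siRNA and 1.03 for untreated. Log2 ratios carry a prior count of 2, and ratios printed without a log carry none. Ratio intervals are exact Clopper-Pearson intervals of the share of reads in the numerator library, CPM intervals exact Poisson, and ratios of ratios exact conditional intervals of a 2 by 2 table. PCR reads that carry no molecular identifiers are not independent, so intervals and floors cover counting error only. The interval code was tested on simulated data. Where a symbol has several entries, the one with the most reads was used.

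The members and gene lists were chosen with earlier results of these data known. Named genes are the members, their neighbours and copies with reads, the 2 leading members and the furthest contrary one of each list with a mean of at least 5 CPM, and the 2 nearest patterns per member. A few genes that meet this rule are not reported here. Start regions came from RefSeq (GRCh38.p14), which was used for names, neighbours and sequence only. Alternatives were total-count, DESeq2 1.42.0 and upper-quartile scaling, FPKM with a pseudocount of 0.1, a prior count of 0.5, subtraction of a length trend, other filters, and sums over copies.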

Additional observations from a re-analysis of the deposited data

How the results depend on the processing

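Of 108 member values recomputed under other scalings, units, prior count or length correction, 94 stayed within their counting intervals, 14 moved beyond them and 0 reversed. The size call changed in 3 and the side of the interval in 7. Values below are log2 ratios. With total-count scaling, MSH6 was at -1.25 and PMS1 at -0.40 for palbociclib over untreated, and MSH6 at -1.09, PMS1 at -0.32 and PMS2 at -0.61 for palbociclib over siRNA. With FPKM, the values for palbociclib over untreated were -1.25 for MSH6, -0.40 for PMS1 and -1.79 for MSH5. For palbociclib over siRNA they were -1.09 for MSH6, -0.32 for PMS1, -0.60 for PMS2, 0.24 for MLH3 and -3.00 for MSH5, whose value depends on the pseudocount. These scalings move all genes together, with a median of -0.27 for palbociclib over untreated with total counts, against -0.07. Upper-quartile scaling gave -0.93 for MSH6 and a median of 0.04 over all genes.

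Summed with its copies, PMS2 was at -0.04 for palbociclib over untreated, -0.18 for siRNA over untreated and 0.15 for palbociclib over siRNA, where it had been at -0.36. The cause was not tested. Adding the MSH5-SAPCD1 readthrough changed nothing, since it had 0 reads. At a mean of at least 5 CPM, which drops MSH3 and MSH5, 1 member remained lower with palbociclib than untreated, 0 were lower than with siRNA and 0 higher with siRNA, and the palbociclib medians were -0.46 and -0.21. The nucleotide excision repair median for palbociclib over siRNA, 0.12, was -0.13 with total counts and with FPKM. The median of meiotic genes for palbociclib over siRNA was -1.02 without a filter, against 1.63 for the 1 gene that passed it. No paired analysis was possible because each group has 1 library. Depth limits MSH3 and MSH5 most, with at most 51 reads in a library.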
